A study of Mus musculus with 4 samples.

Results

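Gdf9, Bmp15, Kit, Gpr3 and Pde3a encode signalling proteins of the growing and arrested mouse oocyte. They were taken by their symbols from a deposited RNA-seq count table of mouse zygotes, and all 5 were found among its 55291 features. The zygote is the fertilised egg before its first division. The series addresses histone H3.3 made from maternal RNA and its action on the parental genomes at the start of embryonic transcription. The 4 groups held 1 sample each, named here from the labels as MO injected, MO control, S31A injected and S31A control; the labels name 3.3 with each. The labels leave MO unexplained; the letters commonly mean morpholino, an antisense oligonucleotide of synthetic make. S31A is standard notation for an alanine in place of a serine. Strain, age, embryo number and the treatment of the control zygotes are not given in the sources used here, and the labels name no genetic change shared by the groups.

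GDF9 and BMP15 are secreted ligands of the TGF-beta family. The oocyte makes them, and they act on the surrounding granulosa and cumulus cells, where they drive follicle growth and cumulus expansion in the mouse. KIT is the receptor tyrosine kinase of the oocyte surface that receives KIT ligand from granulosa cells and promotes oocyte growth. GPR3 is a constitutively active receptor coupled to the stimulatory G protein: it keeps cyclic AMP high in the oocyte, and high cyclic AMP holds meiosis in prophase. PDE3A, an enzyme and not a receptor, is the main phosphodiesterase that degrades cyclic AMP in the oocyte and lets meiosis resume. By the zygote stage meiosis is complete, and mRNAs of this kind are carried over from the egg.

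Each sample had 2 count columns, numbered 1 and 2 and called libraries here. No source says whether they were separate pools of embryos or repeat preparations, so they were not counted as replicates, no test between groups was possible, and intervals cover counting error only. Totals ran from 5661621 to 13233371 counts per library. Levels are in CPM, counts scaled to the size of the library. The H3.3 gene H3f3b had 2.30 and 10.5 CPM with the MO, against 2199 and 1549.6 CPM in its control, and 2438 and 2749 CPM with S31A, against 1453 and 1819 CPM in its control. H3f3a, the other H3.3 gene, had 8.04 and 52.4 CPM with the MO, against 462 and 586 CPM, and 484 and 648 CPM with S31A, against 657 and 563 CPM. Libraries of a sample stood at least 2-fold apart for 33.8% of measured genes in the MO injected and 20.4% in the MO control sample, and for 33.2% in the S31A injected and 32.8% in the S31A control sample. Of 14 oocyte and zygote markers, 14 were detected in every library, with summed levels of 7413 to 9903 CPM. Of 16 cumulus and granulosa cell markers 10 had no count in any library, among them Fshr, Lhcgr, Amh and Foxl2, and the summed level of 267.8 to 734 CPM came mainly from Serpine2 and Cyp19a1. Of 9 sperm and spermatid markers 5 had no count in any library, with Prm1, Tnp1 and Tnp2 among them, and their sum was 2.72 to 7.60 CPM. Blood cell markers summed to at most 5.88 CPM. In bulk samples such as these, fewer cells of a type and less RNA per cell cannot be told apart.

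All 5 genes are protein-coding in GENCODE M21, and their deposited coordinates equalled those of that annotation on mm10; counts are of reads on annotated exons. Gdf9 lies on chromosome 11 from 53431023 to 53437904 on the plus strand and Bmp15 on chromosome X from 6314107 to 6320721 on the minus strand. Kit lies on chromosome 5 from 75574916 to 75656722 (plus), Gpr3 on chromosome 4 from 133209340 to 133212536 (minus) and Pde3a on chromosome 6 from 141249269 to 141507448 (plus). Gdf9 and Bmp15 belong to the same gene family, so the first question was whether their reads could be mistaken for each other. Their coding sequences, of 1323 and 1176 bases, were identical at 58.6% of 1126 aligned positions, and the longest run of bases that they shared exactly was 12. The last 120 coding bases before the stop codon are shown because they encode the end of the cysteine-knot domain that defines the family. The Gdf9 stretch is chr11:53437422-53437541 (plus strand) and the Bmp15 stretch chrX:6315633-6315752 (minus strand), both in coding exons of mm10. They are written 5′ to 3′ from GENCODE M21 transcripts, with capitals at the 69 of 120 positions where both genes have the same base:
Gdf9: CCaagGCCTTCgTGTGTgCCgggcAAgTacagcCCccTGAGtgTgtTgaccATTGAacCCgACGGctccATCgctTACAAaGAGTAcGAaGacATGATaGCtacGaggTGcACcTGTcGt
Bmp15: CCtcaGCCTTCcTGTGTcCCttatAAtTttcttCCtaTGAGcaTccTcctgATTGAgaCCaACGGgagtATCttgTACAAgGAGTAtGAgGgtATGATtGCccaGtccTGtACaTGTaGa

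In this conserved stretch no shared run was longer than 6 bases, so a read longer than the shared runs differs between the ligands. No other transcript matched the coding sequence of any of the 5 genes at 85% identity over 80% of its length. At 85% identity over 50 bases or more, only Pde3a had a match, of 420 bases with Gm28523 at 100% identity. Exon bases outside the coding sequence, which were counted as well, were not compared. For Pde3a, 741 of its 12737 exonic bases (5.82%) overlap the feature Gm28523 on the other strand, and for Gpr3, 204 of 2734 exonic bases (7.46%) overlap Cd164l2 on the other strand. The strand setting of the counting was not given, so reads in these overlaps cannot be assigned with certainty. Cd164l2 did not follow Gpr3: it stood at 214.7 and 47.4 CPM in the MO injected libraries, against 50.1 and 72.2 CPM in the MO control libraries.

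The ligands were the most abundant of the 5 messages per unit of length. Levels per length are given as TPM, computed from the counts and the deposited exon lengths. Bmp15 ranged from 1046 to 4988 TPM over the 8 libraries, with a median of 3524 TPM, and Gdf9 from 605 to 5698 TPM, with a median of 1287 TPM. Kit had a median of 94.7 TPM (83.4 to 131), Gpr3 of 78.7 TPM (26.0 to 108) and Pde3a of 30.8 TPM (19.1 to 53.8). Bmp15 ranked between position 16 and 124 of all features in a library, and Gdf9 between 19 and 213. Both ligands together made up 0.328% to 0.866% of all counts. The order Bmp15, Gdf9, Kit, Gpr3, Pde3a held in 7 of 8 libraries. The exception was MO injected library 1, where Gdf9 stood above Bmp15. The place of Gpr3 above Pde3a rests on the exon lengths used, 2734 and 12737 bases. In counts Pde3a was 1.20 to 3.42 times Gpr3 over the 8 libraries. Except for Gdf9 and Kit, neighbours in this order overlapped in their ranges over the 8 libraries. Within a library Bmp15 was 0.184 to 4.52 times the TPM of Gdf9. Kit was 1.05 to 3.41 times the TPM of Gpr3, and Gpr3 1.36 to 3.89 times that of Pde3a. The ligands and the other 3 genes did not overlap, and the lowest ligand value (605 TPM) was above the highest Kit value (131 TPM).

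**Figure D1:**
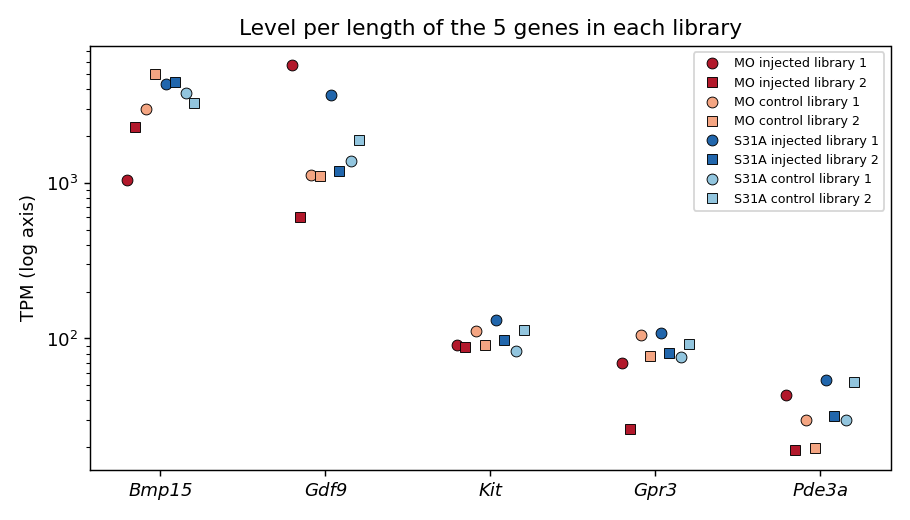
TPM (log axis) of the 5 genes in each of the 8 libraries; circles are library 1 and squares library 2 of a sample, coloured by group. Bmp15 and Gdf9 lie at 605 TPM or more in every library, and Kit, Gpr3 and Pde3a between 19.1 and 131 TPM.

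Setting the MO injected against the MO control sample asks how zygotes with few H3.3 counts differed. In the summed samples Gdf9 was 3.60-fold higher and Bmp15 2.17-fold lower in the injected sample, so the pair of oocyte ligands stood in opposite directions. Gpr3 was 1.63-fold lower, Pde3a 1.44-fold higher, and Kit 1.02-fold lower. With MO injected library 1 left out, the log2 ratio was -0.82 for Gdf9, -0.65 for Bmp15, -1.79 for Gpr3 and -0.38 for Pde3a, so the higher values of Gdf9 and Pde3a rested on that library. Past 2-fold lay 1 of 5 genes on the higher side and 1 on the lower side; over 8110 measured genes (10 CPM or more in either sample) the shares were 11.3% and 12.5%.

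For Gdf9 the MO injected libraries had 4674 and 490.1 CPM, against 869 and 822 CPM in the MO control libraries. The first injected library was the highest of all 8 and the second the lowest of all 8, so the injected libraries lay on both sides of the controls. The log2 ratio of the summed counts was 1.85 (95% interval 1.82 to 1.88). It was -0.82 once MO injected library 1 was left out. The gap between the injected libraries was larger than for 96.5% of genes measured in that sample, while the control libraries were 1.06-fold apart. The direction of Gdf9 was therefore set by a single library. The summed level of the 14 oocyte markers was also highest in the library with the highest Gdf9 of each experiment, 9903 CPM for MO injected library 1 and 9394 CPM for S31A injected library 1, against 7413 to 8084 CPM in the other libraries. With the MO this came from a single marker, the maternal-effect gene Zar1, at 3636 and 459 CPM in the injected libraries, against 697 and 380 CPM in the controls. The 13 markers without Zar1, a division made after the values were seen, summed to 6267 and 7625 CPM in the MO injected libraries, against 6796 and 7359 CPM in the MO control libraries, so that MO injected library 1 was then the lowest of the 4. In the S31A experiment they summed to 7231 and 6224 CPM in the injected libraries, against 6120 and 5987 CPM in the controls. The part of these markers in the Gdf9 values was not tested.

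For Bmp15 the MO injected libraries had 1293 and 2800.2 CPM, against 3461 and 5591 CPM in the MO control libraries. Both injected libraries were below both controls, and of the 5 genes Bmp15 was the only one with this separation at the scaling used; over all measured genes such a gap was found in 40.5%, with the injected libraries below in 21.3% and above in 19.2%. The log2 ratio was -1.12 (interval -1.13 to -1.10), and it was -0.65 without MO injected library 1 and -0.80 without MO control library 2, both short of 2-fold. It was -1.77 without MO injected library 2 and -1.51 without MO control library 1.

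Gpr3 stood at 77.1 and 28.4 CPM in the MO injected libraries, against 109.5 and 76.8 CPM in the MO control libraries. The second injected library was low, while the first overlapped the lower control by a margin of under 1 CPM. With scaling by total counts or DESeq2 size factors both injected libraries lay below both controls. The log2 ratio was -0.71 (interval -0.82 to -0.60), and it was -1.79 without MO injected library 1, -0.36 without MO injected library 2 and -0.39 without MO control library 1.

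Pde3a stood at 224 and 97.0 CPM in the MO injected libraries, against 144 and 91.9 CPM in the MO control libraries. These libraries overlapped, and the higher total again came from MO injected library 1. The log2 ratio was 0.53 (interval 0.45 to 0.61) with that library and -0.38 when it was left out.

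Kit stood at 328 and 315 CPM in the MO injected libraries, against 375 and 294 CPM in the MO control libraries. The injected values lay between the control values. The log2 ratio was -0.03 (interval -0.09 to 0.02), and leaving out single libraries moved it between -0.17 and 0.17.

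**Figure D2:**
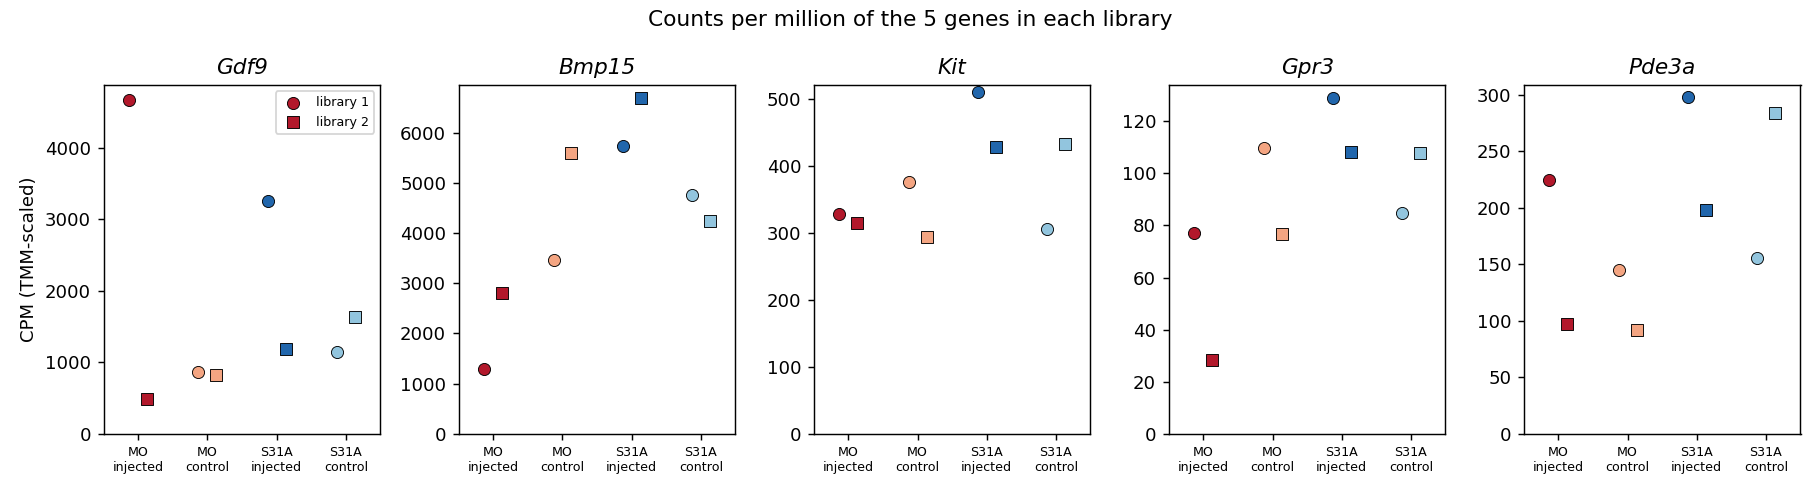
CPM (scaled with TMM factors, axes from 0) of each gene by group; circles are library 1 and squares library 2. Gdf9 is highest in MO injected library 1 (4674 CPM) and lowest in MO injected library 2 (490.1 CPM), both Bmp15 values with the MO lie below those of the MO control, and Kit stays between 294 and 510.0 CPM.

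edgeR's quasi-likelihood test was run over the 4 libraries of the experiment. Its p-values set the gap between the groups against the spread between libraries of a sample, which may be technical. After Benjamini-Hochberg adjustment over 8110 genes, edgeR gave an adjusted p of 0.825 for Gdf9, Bmp15 and Gpr3, 0.853 for Pde3a and 0.984 for Kit. None of the 8110 genes passed with edgeR, with 429 under 0.05 before adjustment, while 54 (0.666%) passed with DESeq2, none of them among the 5. The same edgeR test gave an adjusted p of 0.825 for H3f3a, 18.6-fold lower with the MO, and 0.146 for H3f3b, 324-fold lower. Not passing edgeR here therefore does not show that a gene was unchanged. The unadjusted edgeR p of Bmp15 was 0.0422.

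The S31A experiment asks how zygotes given the H3.3 mutant differed from their control. The summed level of all 5 genes was higher in the injected sample, by 1.69-fold for Gdf9, 1.37-fold for Bmp15, 1.28-fold for Kit, 1.24-fold for Gpr3 and 1.15-fold for Pde3a. None of the 5 reached 2-fold; over 8191 measured genes 14.1% did so on the higher and 16.1% on the lower side. The median log2 ratio of the 5 genes was 0.36, and that of all measured genes 0.02. With S31A injected library 1 left out, the log2 ratio was -0.27 for Gdf9 and -0.21 for Pde3a. The 5 genes share their libraries and scaling, so their common direction is not 5 separate observations.

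Bmp15 stood at 5736 and 6682 CPM in the S31A injected libraries, against 4763 and 4244 CPM in the S31A control libraries. Both injected libraries were above both controls, as for 19.8% of measured genes (39.5% in either direction), and the log2 ratio was 0.46 (interval 0.45 to 0.47; 0.32 to 0.57 with single libraries left out).

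Gdf9 stood at 3264 and 1192 CPM in the S31A injected libraries, against 1147 and 1629.7 CPM in the S31A control libraries. Library 1 of the injected sample was high and library 2 lay between the controls. The log2 ratio was 0.75 (interval 0.73 to 0.77), but -0.27 without S31A injected library 1, 1.20 without S31A injected library 2 and 1.08 without S31A control library 2.

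Gpr3 stood at 129 and 108.2 CPM in the S31A injected libraries, against 84.7 and 107.9 CPM in the S31A control libraries. Its libraries did not overlap at this scaling, by a margin of under 1 CPM, and did overlap with scaling by total counts (124 and 102 CPM injected, 86.9 and 108.9 CPM control). The log2 ratio was 0.31 (interval 0.23 to 0.40).

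Kit stood at 510.0 and 429 CPM in the S31A injected libraries, against 305 and 432 CPM in the S31A control libraries, with a log2 ratio of 0.36 (interval 0.32 to 0.40). Pde3a stood at 298 and 198 CPM in the S31A injected libraries, against 156 and 283 CPM in the S31A control libraries, with a log2 ratio of 0.20 (interval 0.14 to 0.26). For both genes injected and control libraries overlapped. For Pde3a the log2 ratio was -0.21 without S31A injected library 1 and -0.13 without S31A control library 1.

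edgeR's adjusted p over the S31A libraries was 0.802 for Bmp15, 0.870 for Gdf9, 0.912 for Kit, 0.954 for Gpr3 and 0.971 for Pde3a, and edgeR passed 2 of 8191 genes (0.0244%). With DESeq2, which passed 601 genes (7.34%), the smallest adjusted p of the 5 was 0.0715, for Bmp15. The summed cumulus and granulosa marker level was 734 and 452 CPM in the S31A injected libraries, against 337 and 471 CPM in the S31A control libraries; Fshr, Lhcgr, Amh and Foxl2 were at 0 throughout.

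**Figure D3:**
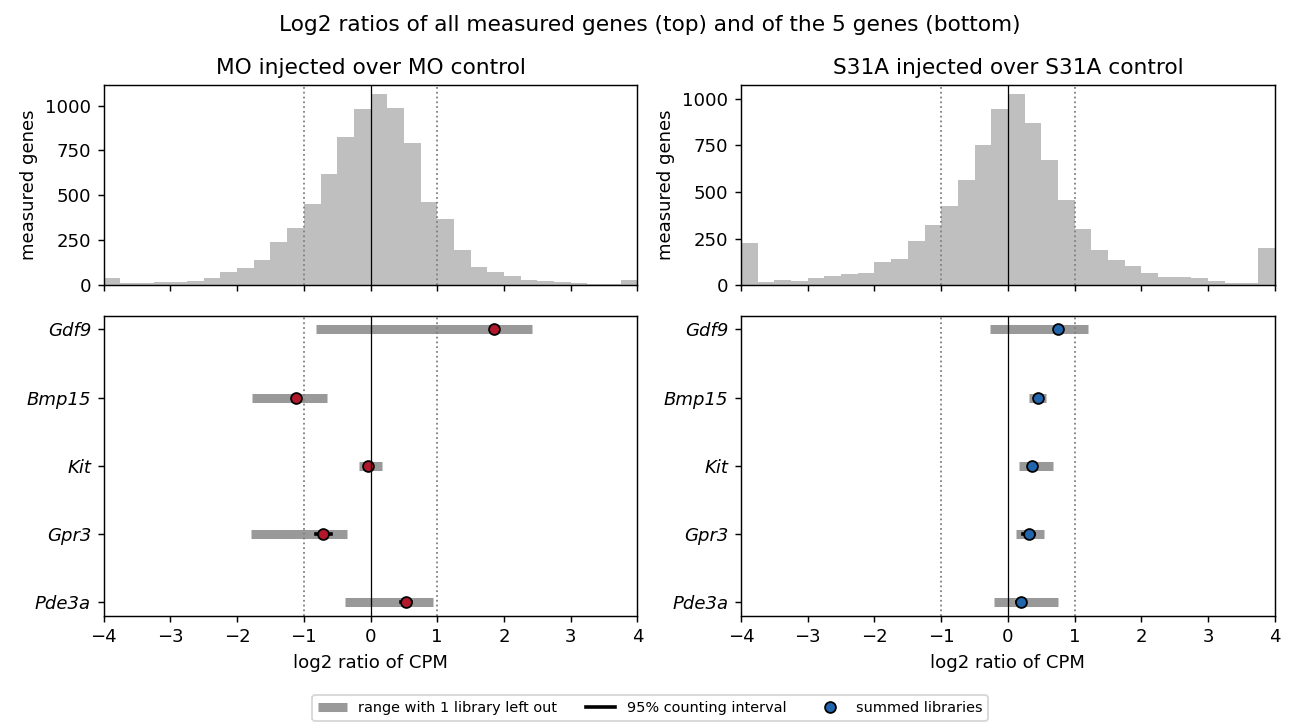
Top, histogram of the log2 ratio of all measured genes, with values beyond -4 or 4 placed in the end bins; bottom, the log2 ratio of the 5 genes (points) with the 95% counting interval (black) and the range when a single library is left out (grey). Dotted lines mark 2-fold. With the MO, Gdf9 at 1.85 and Bmp15 at -1.12 lie past 2-fold in opposite directions and the grey bar of Gdf9 reaches -0.82; with S31A all 5 points lie between 0.20 and 0.75, and the grey bars of Gdf9 and Pde3a reach -0.27 and -0.21.

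The S31A ratio minus the MO ratio was 1.58 for Bmp15, 1.02 for Gpr3 and 0.39 for Kit on the log2 scale, and -1.09 for Gdf9 and -0.33 for Pde3a. Without MO injected library 1 these differences were 1.57 for Gdf9 and 0.57 for Pde3a. For Bmp15 the libraries did not overlap in either experiment and the directions were opposite. Gpr3 joined it under DESeq2 size factors but not under the other scalings. Of all measured genes, injected libraries lay below both controls in 21.3% with the MO and above both in 19.8% with S31A. The share of genes that did both was not counted. An interaction term in edgeR over all 8 libraries gave Bmp15 an unadjusted p of 0.0137 and an adjusted p of 0.703 over 8981 genes, and the other 4 genes adjusted p-values of 0.906 to 0.996; 0.0334% of genes passed. The control samples of the experiments were set side by side as well. Mitochondrially encoded genes made up 5.55% and 5.23% of counts in the MO control libraries, against 9.65% and 10.4% in the S31A control libraries. In the injected libraries they made up 3.47% and 4.99% with the MO, and 7.13% and 9.59% with S31A. Features with a count numbered 15156 and 14895 in the MO control, against 11372 and 11768 in the S31A control. The part of these differences in the values compared between experiments was not tested. Gdf9 stood at 1147 and 1629.7 CPM in the S31A control libraries, against 869 and 822 CPM in the MO control libraries (log2 ratio 0.77), and Pde3a had 156 and 283 CPM, against 144 and 91.9 CPM (log2 ratio 0.90). For both, the control libraries of the experiments did not overlap, which held for 46.4% of 8266 genes measured in the controls (higher with S31A in 21.2% and lower in 25.2%). None of the 5 was 2-fold apart between the summed controls, as 13.6% of genes were on the higher and 16.2% on the lower side. For Pde3a this depended on single libraries: the log2 ratio was 1.31 without MO control library 1 and 1.22 without S31A control library 1, both past 2-fold, and 0.35 without S31A control library 2. For Gdf9 it ran from 0.44 without S31A control library 2 to 0.97 without S31A control library 1. edgeR's adjusted p between the controls was 0.402 for Gdf9 and 0.535 for Pde3a; DESeq2 passed 4.32% of genes and none of the 5. These values share the control samples with the injection comparisons.

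Ratios of a pair of these genes within a library need no scaling between libraries. In MO injected libraries Gdf9 had 3.61 and 0.175 counts per count of Bmp15, against 0.251 and 0.147 in MO control libraries. In S31A injected libraries the ratio was 0.569 and 0.178, against 0.241 and 0.384 in S31A control libraries. The ratio was above 1 in MO injected library 1 and below 1 in the other 7 libraries, and injected and control libraries overlapped in both experiments. The arrest pair did not overlap with the MO, which also held for other pairs, named below. Pde3a, which degrades cyclic AMP, had 2.91 and 3.42 counts per count of Gpr3, which raises it, in the MO injected libraries, against 1.32 and 1.20 in the MO control libraries, and the counting intervals of the groups (2.71 to 3.94 and 1.06 to 1.43) did not meet. In the S31A injected libraries it was 2.31 and 1.83, against 1.84 and 2.63 in the S31A control libraries, and these overlapped. Of the 10 pairs of the 5 genes, 4 had ratios that did not overlap between MO injected and MO control libraries, and 0 between S31A injected and S31A control libraries. The 4 were Pde3a over Gpr3, Gdf9 over Gpr3, Kit over Gpr3 and Bmp15 over Kit. Gpr3 was part of each but the last, so the gap was not particular to the arrest pair. Among all pairs of measured genes with counts in all 4 libraries, 39.5% did not overlap in the MO experiment and 38% in the S31A experiment, so 4 of 10 is close to that background.

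**Figure D4:**
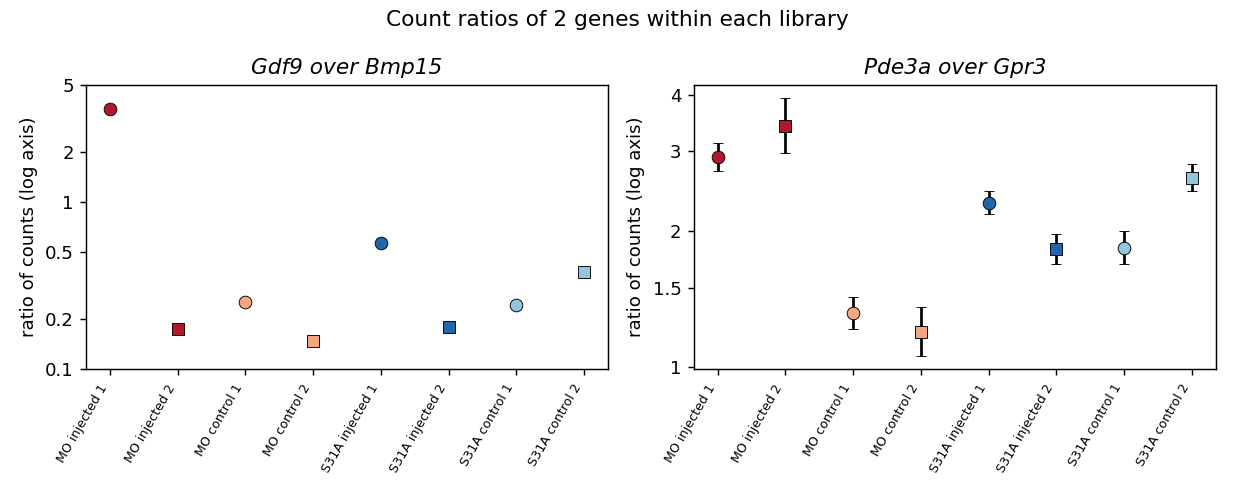
Count ratio within each library (log axes) for Gdf9 over Bmp15 and Pde3a over Gpr3, with 95% Clopper-Pearson intervals of counting error; circles are library 1 and squares library 2. Gdf9 over Bmp15 is 3.61 in MO injected library 1 and below 1 elsewhere, while Pde3a over Gpr3 is 2.91 and 3.42 with the MO, against 1.32 and 1.20 in its control.

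Among themselves the genes differed in how far they spread over the 8 libraries. Gdf9 ranged 9.54-fold in CPM, Bmp15 5.17-fold, Gpr3 4.54-fold, Pde3a 3.24-fold and Kit 1.73-fold. Among 2020 genes with a mean of 100 CPM or more the median range was 2.72-fold. Of these, 2.97% had a larger range than Gdf9, 12.4% a larger one than Bmp15, and 90.6% a larger one than Kit. Over all 7470 genes with a mean of 10 CPM or more, which include less abundant ones, the median range was 4.64-fold, and 27.7% had a larger range than Gdf9, 45.6% than Bmp15 and 96.9% than Kit. The most even of the 5 messages was thus that of the receptor tyrosine kinase and the least even that of Gdf9. Over the 8 libraries, which come from 4 samples and share their depth and composition within a library, Pearson's r of log2(CPM + 1) was 0.806 between Gdf9 and Pde3a and 0.792 between Kit and Pde3a. Between Gdf9 and Bmp15 it was -0.329, and 0.597 without MO injected library 1.

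The genes most like each member over the 8 libraries were found by Pearson's r among 6475 others with a mean of 10 CPM or more. The highest of so many r values over 8 libraries are high by selection, so they describe likeness only. For Gdf9 they were Arid1a, a subunit of the SWI/SNF chromatin remodeller (r = 0.982), the nuclear receptor Nr6a1 (0.967) and the spindle checkpoint kinase Bub1b (0.965); without MO injected library 1 these values were 0.966, 0.939 and 0.937. For Bmp15 they were Vapa, an endoplasmic reticulum tethering protein (0.989), the dynein subunit Dync1i2 (0.988) and Rad23b (0.980). For Kit they were the mitochondrial elongation factor Gfm1 (0.979), Zfp445 (0.967) and Zfp735 (0.957). For Gpr3 they were Lap3 (0.966), Gabpb1 (0.962) and Gmpr (0.943), with values of 0.791, 0.811 and 0.59 without MO injected library 2, where Gpr3 was lowest. For Pde3a they were Mroh2b (0.937), Echs1 (0.931) and Rdx (0.929). Some had low levels: Lap3 ranged from 1.31 to 16.1 CPM, Gmpr from 0 to 24.7 CPM and Mroh2b from 1.97 to 15.4 CPM.

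The partners of these signals were followed in 9 lists of 137 genes in all. In the MO experiment 81 were measured, with 12 (14.8%) past 2-fold on the higher and 4 (4.94%) on the lower side, beside 11.3% and 12.5% of all measured genes; their median log2 ratio was 0.14, and that of all measured genes 0.03. In the S31A experiment 83 were measured, with 15 (18.1%) on the higher and 8 (9.64%) on the lower side, beside 14.1% and 16.1% of all measured genes, and with a median of 0.17 beside 0.02 for all. The counts of single lists below are to be read against the same shares of all measured genes. The count on the lower side was 11 with the MO when MO injected library 2 was left out, and 14 with S31A when S31A injected library 2 or S31A control library 2 was left out. None of the genes named in the lists passed edgeR's adjusted threshold in either experiment (adjusted p of 0.802 or more), so the folds below are descriptions of single samples.

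Receptors and mediators of the ligands came first. BMPR2 is the type II receptor that GDF9 and BMP15 bind, and BMPR1B a type I receptor of BMP15. Bmpr2 stood at 97.1 and 199 CPM in the MO injected libraries, against 216 and 95.2 CPM in the MO control libraries. Bmpr1b had 302 and 198 CPM with the MO, against 277 and 149.8 CPM; both genes overlapped. Of 8 measured TGF-beta and BMP receptors 2 were past 2-fold with the MO, both higher, beside 11.3% of all measured genes higher and 12.5% lower. These were the type I receptors Acvr1b (log2 ratio 2.11, at 118 and 23.0 CPM against 20.0 and 17.1 CPM) and Tgfbr1, through which GDF9 signals (1.08, at 61.4 and 49.5 CPM against 21.7 and 36.5 CPM). With S31A 3 of 8 were higher and 1 lower, beside 14.1% and 16.1% of all. Acvr2a was at 24.2 and 36.8 CPM, against 0 and 0.703 CPM (log2 ratio 6.02, interval 5.38 to 7.59, on 8 control counts), Acvr1b had a log2 ratio of 1.63 with libraries apart, and Tgfbr1 of 1.10 with overlapping libraries. Bmpr1a, at 31.7 and 12.7 CPM against 42.4 and 64.3 CPM, had a log2 ratio of -1.20.

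Of 8 measured SMADs and regulators, the transcription factors that carry the signal, 1 was at least 2-fold higher with the MO, the ubiquitin ligase Smurf1 (log2 ratio 1.33), and 1 with S31A, Smad5 (2.92), which was held by a single injected library at 74.1 CPM and had 0 counts in the other. Smad4, the shared partner of these factors, stood at 0.33 with the MO and -0.99 with S31A. Of 6 measured ligands, convertases and binding proteins, 2 were higher with the MO: Furin, a convertase that cleaves TGF-beta family precursors, with 214.7 and 18.8 CPM against 28.0 and 15.8 CPM (2.58), and the oocyte ligand Bmp6, with 384 and 146 CPM against 158 and 123 CPM (1.04). Like Gdf9, both were high in MO injected library 1 alone. With S31A, the growth factor Fgf8 was higher, with 82.2 and 70.3 CPM against 32.7 and 8.88 CPM (1.91), and Tgfb3 lower, with 16.6 and 67.8 CPM against 102 and 97.1 CPM (-1.33).

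On the KIT side, 3 of 27 measured genes lay past 2-fold on the higher side with the MO (11.1%, beside 11.3% of all measured genes) and 0 on the lower (beside 12.5%). They were the kinases Braf (log2 ratio 2.07), Mtor (1.67) and Akt1 (1.05), each with both injected libraries above both controls, as for 19.2% of all measured genes. With S31A 5 of 27 were higher (18.5%, beside 14.1% of all) and 4 lower (14.8%, beside 16.1%). On the higher side Braf stood at 1.54 and Tsc1, a brake on the mTOR kinase, at 2.09. The cell cycle inhibitor Cdkn1b had 16.5 and 33.1 CPM, against 5.23 and 11.4 CPM, while Sos1 (1.92) had 0 counts in one injected library. The lower ones were 3 subunits of the PI3 kinase that KIT activates and Tsc2, the partner of Tsc1. The regulatory subunit Pik3r1 had 54.9 and 49.8 CPM with S31A, against 132 and 114 CPM in its control (log2 ratio -1.22). The catalytic subunits Pik3ca (-1.28) and Pik3cd (-1.15) likewise had both injected libraries below both controls, as for 19.8% of all measured genes, whereas Tsc2 (-1.17) overlapped. Kitl, the KIT ligand of granulosa cells, was at 26.3 CPM in one S31A injected library and 0 in the other, against 0.0934 and 0 CPM in the controls (log2 ratio 6.68, interval 5.85 to 13.65, on 1 control count). It was detected in the MO experiment in both groups, at 11.8 and 15.5 CPM in the injected libraries and 10.9 and 22.85 CPM in the controls.

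Around cyclic AMP, Gpr12, a receptor close to Gpr3, was near or at 0, with 0 and 3.27 CPM in the MO injected, 2.61 and 2.30 CPM in the MO control, 0.256 and 0 CPM in the S31A injected and 0 in both S31A control libraries. Gnas, which encodes the alpha subunit of the stimulatory G protein, had 0 to 3.78 CPM in the 8 libraries. The inhibitory G protein subunit Gnai2 was the only 1 of 7 measured G protein and cyclase genes at least 2-fold apart with the MO (log2 ratio 1.12, at 114 and 139 CPM against 56.3 and 64.6 CPM), and the adenylyl cyclase Adcy5 with S31A (1.49, at 80.9 and 24.6 CPM against 24.5 and 15.7 CPM); Adcy5 stood at -0.86 with the MO. Among other phosphodiesterases, 2 of 4 measured were higher with the MO, Pde8a (1.64) and Pde1c (1.06). With S31A 2 of 6 were higher, Pde4a (5.85, on 3 control counts, interval 5.06 to 8.91) and Pde3b (1.04), and 1 lower, Pde8b (-1.46). The Pde8b libraries overlapped at low levels, with 0.0853 and 8.14 CPM in the S31A injected and 7.38 and 12.9 CPM in the S31A control libraries. Pde3b, the close relative of Pde3a, overlapped between groups in both experiments. Of 10 measured protein kinase A genes none was 2-fold apart with the MO and 1 with S31A, the anchoring protein Akap1 (1.04); the catalytic subunit Prkaca stood at 0.87 with the MO and -0.81 with S31A.

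Downstream, cyclic AMP holds the oocyte in prophase through the switch on CDK1. With the MO 1 of 10 measured genes of this switch was at least 2-fold higher and 4 lower, beside 11.3% and 12.5% of all. The inhibitory kinase Wee1 had a log2 ratio of -1.77, at 1.84 and 11.2 CPM against 18.15 and 23.8 CPM. The activating phosphatase Cdc25b had -1.22 and the cyclin Ccnb3 -1.54, with 0 counts in MO injected library 1. The last was Cdk1 itself (-1.03), with 24.5 and 28.8 CPM against 39.9 and 80.1 CPM. More abundant genes of the list overlapped: Wee2, at 880 and 976 CPM with the MO against 861 and 956 CPM, and the cyclin Ccnb1, at 1351 and 2314 CPM against 2414 and 1414 CPM. Mos, the kinase that sustains egg arrest, had a log2 ratio of 1.35, with 93.1 and 12.3 CPM against 24.1 and 24.3 CPM, so that like Gdf9 it was above the controls in injected library 1 and below them in library 2. With S31A 1 of 10 was higher and 1 lower: Mos, with 77.2 and 13.9 CPM against 17.8 and 22.1 CPM (1.30), and Cdc25a, with 30.6 and 29.1 CPM against 71.0 and 88.8 CPM (-1.41). Of 8 genes of the granulosa side of the arrest signal 1 was measured, the oocyte gap junction gene Gja4, with log2 ratios of -0.11 with the MO and -0.45 with S31A; the receptors Npr2, Lhcgr and Fshr were at 0 in all libraries.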

How the data were processed

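RNA-seq of mouse zygotes was analysed from the counts of reads per gene as the authors deposited them, unnormalized, for 55291 features. Per the labels' protocols, cDNA was amplified by PCR before library preparation. Per the submitters' processing notes, Bowtie2, featureCounts and DESeq2 were used with mm10. Versions, strandedness and the handling of multiply matching reads are not given in the sources used here. Exon lengths were taken per the file headers; 95.7% of features had the same coordinates in GENCODE M21.

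Each sample had 2 count columns (libraries). A chi-square test of counts between them gave 47.1 to 122.6 per degree of freedom, far from copies of a single library. Summed counts of each sample were scaled with TMM factors (edgeR 4.0.16, R 4.3.3), and log2 ratios used a prior count of 2. A gene was measured at 10 CPM or more in either sample compared. Intervals are exact 95% Clopper-Pearson intervals of counting error, and PCR copies cannot be told from molecules. edgeR's quasi-likelihood test and DESeq2 1.42.0, with Benjamini-Hochberg adjustment, were run over libraries, and the scripts were tested on simulated data. Coding sequences were compared with BLAST 2.17.0 and Biopython 1.88, and the printed sequences were read from GENCODE M21 transcripts.

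The 5 genes, the lists and the tests were chosen with earlier results of these data known. Named genes were the 5, up to 4 measured genes per list and injection comparison with the largest absolute log2 ratio, the 3 genes with the highest Pearson r per member (leaving out predicted, clone, Mir and Snor names), and the most abundant or absent markers. Bmpr2, Bmpr1b, Gpr12, Gnas, Cdk1, Npr2, Cdkn1b, Pik3r1, Pik3ca, Pik3cd, Tsc2, Wee2, Ccnb1 and Zar1 were named after their values were seen. Alternatives were other scalings, filters of 1 and 50 CPM or none, a prior count of 0.5, libraries weighted equally, and each library left out.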

Additional observations from a re-analysis of the deposited data

Results flagged for a closer look

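Bmp15 differed in direction between the experiments. Its log2 ratio with S31A minus that with the MO was 1.58: both MO injected libraries lay below both MO control libraries, and both S31A injected libraries above both S31A control libraries. Of all measured genes 21.3% had the first gap and 19.8% the second. The share with both was not counted, so Bmp15 is not shown to be unusual in this. With 1 sample per group the difference between the injections could not be tested between samples. The edgeR interaction term set this difference against the spread between libraries of a sample, and gave an adjusted p of 0.703.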

How the results depend on the processing

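The labels give the samples no replicate numbers, and no source says whether columns of the same number belong together. Deviations of same-numbered libraries correlated at 0.0676 in the MO and -0.0122 in the S31A experiment over genes. These values show no shared shift of same-numbered libraries, but cannot show how the libraries were collected or prepared. With the library number as a replicate block edgeR passed 0 and 2 genes, the same counts as without it.

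Without MO injected library 1 the log2 ratio of Gdf9, past 2-fold with the MO, turned to -0.82, and its S31A minus MO difference to 1.57. Smaller values also changed sign with a single library left out, as the ranges show: Gdf9 and Pde3a with S31A, Kit and Pde3a with the MO, and the Pde3a difference. For Pde3a with the MO, that library was again MO injected library 1. With single libraries left out, ratios with the MO ran from -0.82 to 2.43 for Gdf9, -1.77 to -0.65 for Bmp15, -0.17 to 0.17 for Kit, -1.79 to -0.36 for Gpr3 and -0.38 to 0.94 for Pde3a. With S31A they ran from -0.27 to 1.20, 0.32 to 0.57, 0.16 to 0.68, 0.12 to 0.55 and -0.21 to 0.75 in the same order of genes. The S31A minus MO difference ran from -2.12 to 1.57 for Gdf9, 1.11 to 2.22 for Bmp15, 0.18 to 0.72 for Kit, 0.67 to 2.10 for Gpr3 and -0.75 to 0.57 for Pde3a. Genes at least 2-fold higher numbered 653 to 1405 with the MO and 1260 to 1703 with S31A, and lower ones 966 to 1885 and 1538 to 1757. List genes numbered 9 to 15 higher and 3 to 11 lower with the MO, and 13 to 21 higher and 9 to 14 lower with S31A.

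Scaling by total counts alone shifted the median of all genes by -0.11 with the MO and -0.10 with S31A. Ratios of Gdf9, Bmp15, Kit, Gpr3 and Pde3a were then 1.74, -1.23, -0.15, -0.82 and 0.42 with the MO and 0.66, 0.36, 0.26, 0.22 and 0.10 with S31A. DESeq2 size factors gave Bmp15 -1.14 with the MO and a difference between injections of 1.60. With libraries weighted equally Gdf9 stood at 0.84 with the MO, short of 2-fold, Bmp15 at -1.21, Gpr3 at -0.97 and Pde3a at 0.36, Gdf9 with S31A at 0.53, and the differences were -0.31 for Gdf9, 1.67 for Bmp15, 1.27 for Gpr3 and -0.15 for Pde3a; 8 list genes were lower with the MO. The cause of these shifts was not tested.

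Filters set the counts of genes 2-fold apart by changing which genes were tested. With the MO, 2376, 334 and 3114 were higher and 3456, 271 and 5539 lower at 1 CPM, 50 CPM and no filter; with S31A, 2939, 311 and 3577 were higher and 3120, 286 and 3715 lower. Without a filter 19 list genes were higher and 19 lower with the MO (13 lower at 1 CPM), and 23 and 13 with S31A (4 higher at 50 CPM). Genes passing the test over libraries numbered 3 with the MO and 5 with S31A at 50 CPM, 3 and 4 in a single fit of all libraries, and 54 and 601 with DESeq2. None of the 5 genes passed in any of these fits (adjusted p of 0.0715 or more). The TPM order held in 7 libraries also without mitochondrially encoded genes.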
